A study of Mus musculus with 32 samples.

Results

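RNA was compared between mouse embryonic stem cells (ESC) of 2 Smarce1-MD clones, 09 and 30, and 2 Smarce1-MD(R42A) clones, A04 and A10. These are the ESC libraries with the lower run of library numbers in the labels, 3 libraries per clone, so 12 of the 32 libraries of the study. They were chosen by genotype, stage and library series, with no measured value, and Y-linked genes were left out. All 4 clones are of strain 129S5/SvEvBrd, were untreated, and were grown on gelatin with serum and leukaemia inhibitory factor (LIF). Both genotypes carry a tag on Smarce1, so no clone is wild type. The labels do not spell out MD. In published work it is a mitotic degradation domain taken from cyclin B1, which sends the fused protein for destruction during mitosis, and R42A is its inactive form. Each clone is 1 cell line, so a difference between genotypes rests on 2 against 2 clones, and the labels do not say whether the libraries of a clone came from separate cultures. The remaining ESC libraries, of MD clones 45 and 47 and R42A clones A01 and A02, form the second library series.

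BAF57, the protein made from Smarce1, belongs to the SWI/SNF or BAF complexes, which use ATP to move or evict nucleosomes and so open enhancers and promoters. In ESC a dedicated form of the complex works beside Pou5f1, Sox2 and Nanog. ESC in serum and LIF fluctuate between a naive state, held by factors such as Klf4, Esrrb and Tbx3, and a formative state nearer to the epiblast after implantation, marked by Dnmt3b, Pou3f1 and Fgf5.

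The 12 libraries held between 44324124 and 96424439 counts (median 70381324 in MD and 72677721 in R42A). Levels are library-scaled counts (CPM), of the 3 summed libraries of a clone or of 1 library, and changes are log2(MD/R42A) with a standard error (SE) from edgeR's quasi-likelihood test of the 4 clone sums. A gene is called where its Benjamini-Hochberg adjusted p is under 0.05. The first principal component of log2 CPM held 42.4% of the variance and separated the genotypes, and the second held 19.3% and separated R42A clone A04 from A10. The third library of A04 stood apart from the other two on the second component, at 67.87 against 25.57 and 14.95. Libraries of the MD clones differed from each other by a median absolute log2 ratio of 0.209, those of the R42A clones by 0.316, and those of the genotypes by 0.391. Libraries of 1 clone differed by 0.336 in A04, 0.256 in clone 09, 0.185 in clone 30 and 0.125 in A10, so those of A04 and of clone 09 lay as far apart within the clone as between clones of the genotype.

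**Figure D1:**
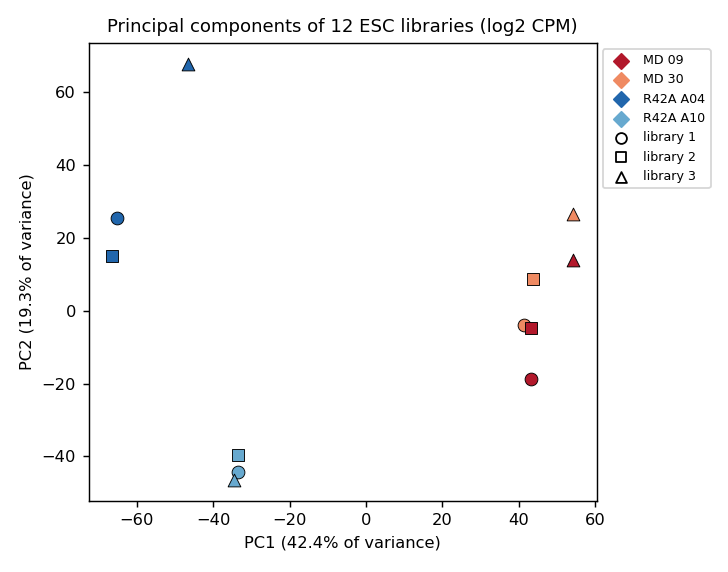
Principal components of the log2 CPM of the 12 libraries, with the first (42.4% of the variance) on the x axis and the second (19.3%) on the y axis; colours are clones and shapes are library numbers. The 6 MD libraries lie together on the right, and the R42A clones A04 and A10 lie apart on the left, with the third A04 library farthest up at 67.87.

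Smarce1 RNA itself (ENSMUSG00000037935.16, chromosome 11) was at similar levels in both genotypes, at 112 and 114 CPM in MD clones 09 and 30 against 125 and 100.2 CPM in R42A clones A04 and A10. Its libraries ran from 108 to 117 CPM (median 112) in the 6 MD libraries and from 96.7 to 138 CPM (median 111) in the 6 R42A libraries, and the ranges overlapped. The log2 change was 0.01 ± 0.12, adjusted p = 0.97. The median gene of chromosome 11 was higher in MD by 0.456. With each chromosome scaled separately, the edgeR log2 change of Smarce1 was -0.458, adjusted p = 0.149. Both genotypes carry a tag, the gene counts do not tell the tagged forms apart, and the tagged protein was not measured here. Of 31 SWI/SNF genes, Smarce1 included, 30 were tested, with a median log2 change of 0.06. Of these, 1 was called higher and 1 lower, against 4.57% and 3.29% of all tested genes. Smarcd3, the BAF60C subunit of heart and neural complexes, was lower (-1.44 ± 0.20; 2.59 and 2.14 against 5.74 and 7.12 CPM), and Actb, counted here because actin is a subunit, was higher (0.40 ± 0.06). The ATPase gene Smarca4 had a log2 change of 0.05 ± 0.07, adjusted p = 0.703, Arid1a of 0.24 ± 0.18, adjusted p = 0.425 and the core subunit gene Smarcb1 of 0.08 ± 0.09, adjusted p = 0.616.

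ESC identity was clear in all 12 libraries. Pou5f1, the master factor of pluripotency, lay from 570.5 to 972 CPM (median 817) in the 6 MD libraries and from 679.7 to 1068 CPM (median 849.7) in the 6 R42A libraries. Its log2 change was -0.06 ± 0.07, adjusted p = 0.652. Sox2 had a log2 change of 0.13 ± 0.06, adjusted p = 0.248, and Nanog of -0.09 ± 0.07, adjusted p = 0.431. Zfp42 (Rex1, on chromosome 8) and Utf1 had changes of -0.24 ± 0.15, adjusted p = 0.35 and -0.03 ± 0.11, adjusted p = 0.876. Of the 6 ESC markers, Esrrb was called, and lower in MD.

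Of 22555 genes tested, 1771 (7.85%) were called: 1030 higher in MD (4.57%) and 741 lower (3.29%), of which 381 and 362 changed at least 2-fold. The adjusted p of every call lay between 0.0222 and 0.05, so it is not repeated gene by gene, and 6481 genes had an unadjusted p under 0.05. In 17.3% of all tested genes the 6 MD libraries did not overlap the 6 R42A libraries, and this held for 1542 of the 1771 called. In 490 called genes each MD clone differed at least 2-fold from each R42A clone, 265 higher and 225 lower. The count of calls moves with the libraries: without MD clone 09 edgeR called 1 gene, without clone 30 it called 0, and without every second library 0, with 2890, 2818 and 5099 genes at an unadjusted p under 0.05. Without R42A clone A04 it called 8470 genes and without A10 8480; a genotype left with 1 clone is assumed to vary like the other. Without the third A04 library it called 4193, which held 1766 of the 1771. DESeq2 called 4317, including 1712 of them, and limma voom on the libraries with the clone as a random block 5323, including 1678.

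Chromosomes 8 and 11 stood apart from the rest. In log2 CPM with a prior count of 2, the median gene of chromosome 11 was higher in MD by 0.456 on the log2 scale, and that of chromosome 8 was lower (median -0.35), while chromosome 6 lay at -0.077, X at 0.068 and every other chromosome closer to 0. On chromosome 11, 456 of 1653 tested genes were called, 448 of them higher, and on chromosome 8, 146 of 1133, with 129 lower. These chromosomes hold 12.4% of the tested genes and 34.0% of the calls. Outside them 565 genes were higher and 604 lower, 5.91% of 19769. The shift ran along the full length of both: in windows of 20 Mb, the median fitted log2 change lay between 0.413 and 0.58 on chromosome 11 and between -0.446 and -0.321 on chromosome 8.

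The clones were not alike within R42A. Relative to the mean of the 4 clones, the chromosome 8 median was -0.179 and -0.173 in MD clones 09 and 30 but 0.328 in A04 and 0.024 in A10, and the chromosome 11 median was 0.228 and 0.243 in MD, -0.29 in A04 and -0.156 in A10. DNA copy number was not measured here, so a cause in the number of chromosomes, in the tag or in the history of the clones cannot be told apart. With each chromosome scaled separately, 890 genes were called (3.95%), 432 higher and 458 lower, and 833 of the 1771 were among them. Members on chromosomes 8 and 11 are therefore marked in the text, with the adjusted p after this scaling where the call was lost. Genes of other chromosomes lost calls too, and not each loss is marked: of 142 named called genes, 100 kept theirs. Among the unmarked losses, the adjusted p after scaling was 0.0597 for Cdkn1b, 0.0559 for Itga1 and 0.053 for Gclm. It was 0.062 for Hoxc10, 0.0597 for Notch2 and 0.0597 for Aldh1a3.

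**Figure D2:**
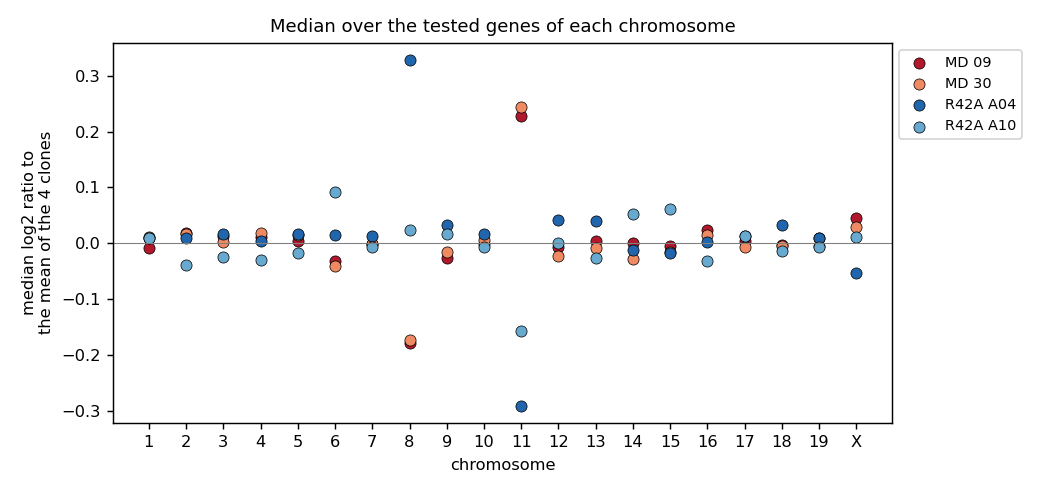
Median, over the tested genes of each chromosome (x axis), of the log2 ratio of each clone to the mean of the 4 clones (y axis). Chromosome 8 lies low in both MD clones and highest in A04 (0.328), chromosome 11 lies high in both MD clones (0.228 and 0.243), and the other chromosomes lie near 0.

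The 15 called genes with the highest change were chosen among those at or above 5 CPM in MD with the libraries of the genotypes apart. Enpp2, which encodes autotaxin, the secreted enzyme that makes lysophosphatidic acid, lay from 13.9 to 26.1 CPM (median 19.4) in the 6 MD libraries and from 0.344 to 2.19 CPM (median 1.33) in the 6 R42A libraries. Both R42A clones were low, A04 at 0.509 and A10 at 2.09 CPM, and the log2 change was 3.90 ± 0.70. The semaphorin genes Sema6a and Sema3e, which encode axon guidance ligands, were higher by 2.697 ± 0.40 and 2.26 ± 0.20. Sema3e lay from 55.5 to 71.5 CPM (median 62.1) in the 6 MD libraries and from 10.5 to 19.5 CPM (median 11.9) in the 6 R42A libraries, a wide gap in which no library fell. Nefm, a neurofilament subunit, was at 6.47 and 4.61 CPM in MD clones 09 and 30 against 0.6402 and 1.24 CPM in R42A clones A04 and A10 (2.56 ± 0.39). Mrc2, an endocytic collagen receptor on chromosome 11, was higher by 2.21 ± 0.19.

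Among the other highest genes, Ccno, which encodes a cyclin-like protein of multiciliated cells, was at 13.8 and 13.8 CPM in MD clones 09 and 30 against 1.84 and 2.12 CPM in R42A clones A04 and A10 (2.80 ± 0.15). Its clones agreed closely within each genotype. Vrtn, known for its link to vertebra number in pigs, was higher by 2.87 ± 0.24, Apol6 of the apolipoprotein L family by 2.79 ± 0.20, and Fndc3c1 on the X chromosome by 2.74 ± 0.43. Pramel7, an oocyte and blastocyst gene that promotes the ground state, was higher by 3.02 ± 0.35 (6.43 and 7.22 against 0.586 and 1.09 CPM). Kctd12b had a change of 2.33 ± 0.41, and the interferon-induced gene Ifi35 on chromosome 11 of 2.23 ± 0.43, which was lost after scaling by chromosome (adjusted p = 0.0712). H19, Myl9 and Ccn1, also among these 15, are described with their groups.

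The 15 lowest genes, chosen in the same way, were at least 5 CPM in R42A. Rapgef3, which encodes EPAC1, an exchange factor for Rap that is switched on by cAMP, lay from 0.708 to 1.77 CPM (median 1.31) in the 6 MD libraries and from 6.93 to 13.4 CPM (median 10.6) in the 6 R42A libraries. The log2 change was -3.05 ± 0.30, and the clones of a genotype were close (0.946 and 1.58 against 9.396 and 11.5 CPM). Pde9a, a phosphodiesterase of cGMP, was lower, at -2.36 ± 0.17, and Mras, a Ras-family GTPase, at -2.29 ± 0.23, from 84.3 and 54.2 CPM in A04 and A10 to 13.7 and 14.6 in MD. Atp2a3, the SERCA3 calcium pump gene, was lower, at -2.17 ± 0.23 although it lies on chromosome 11. Camk2n1, an inhibitor of CaM kinase II, and Rgs22, a regulator of G protein signalling, were lower, at -2.02 ± 0.29 and -2.11 ± 0.25.

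Coro2b, an actin-binding coronin, lay from 1.596 to 3.16 CPM (median 2.53) in the 6 MD libraries and from 12.1 to 19.2 CPM (median 17.4) in the 6 R42A libraries. With 2.59 and 2.46 against 16.02 and 17.7 CPM in the clones, its log2 change of -2.74 ± 0.13 had one of the smaller errors among these genes. Kank4, an adhesion scaffold, and Emp1, a membrane protein of epithelia, had changes of -1.99 ± 0.10 and -2.55 ± 0.22. Pdyn, the precursor of dynorphin peptides, had a change of -2.61 ± 0.34, and Cpe on chromosome 8, the carboxypeptidase that trims such precursors, of -2.51 ± 0.19 and Kdelr3, a retrieval receptor of the endoplasmic reticulum, of -2.42 ± 0.15. Nkx6-3, a homeobox gene of the stomach, and Sfrp1, a secreted Wnt antagonist, both on chromosome 8, had changes of -3.01 ± 0.28 and -2.05 ± 0.13. Klhdc7a completed the 15 at -2.82 ± 0.30. Of these 30 genes, 3 lost their call when each chromosome was scaled separately: Ifi35, Enpp2 (adjusted p = 0.0519) and Kctd12b (adjusted p = 0.0524).

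**Figure D3:**
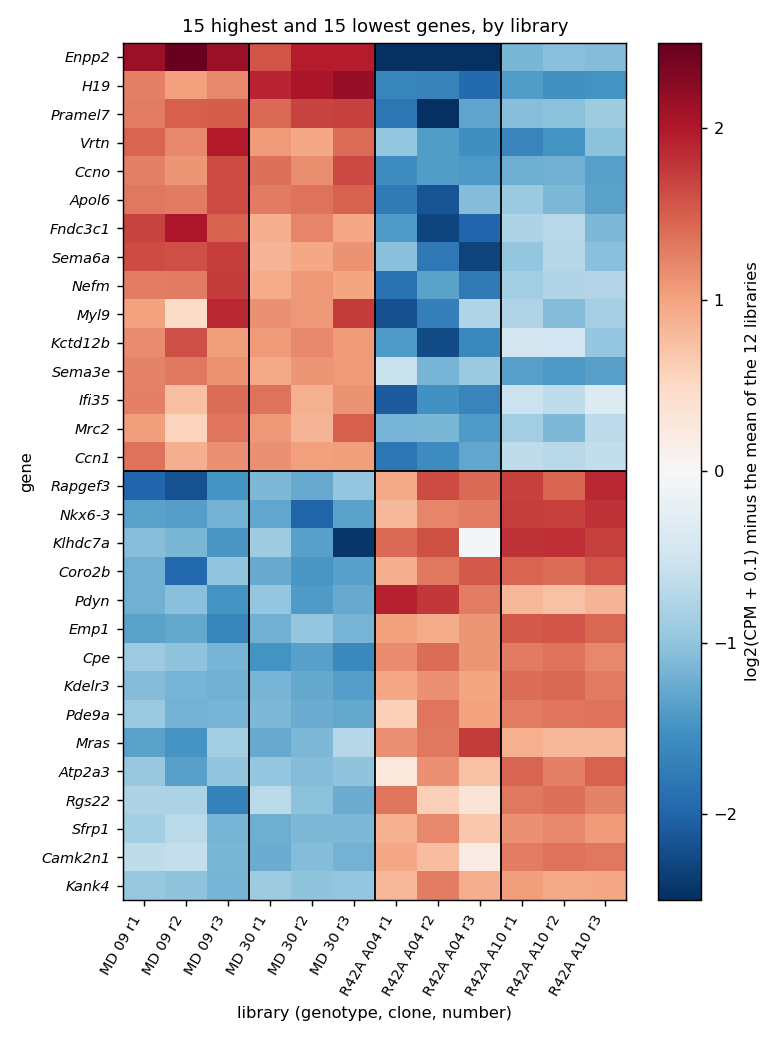
Colour shows log2(CPM + 0.1) of each library (columns, grouped by clone) minus the mean of the 12 libraries, for the 15 highest and 15 lowest named genes (rows). Every row splits at the line between MD and R42A, since the genes were chosen with the libraries of the genotypes apart. A04 is the more extreme R42A clone for Enpp2, Sema6a and Nefm, and library r3 of A04 is the palest for Klhdc7a.

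Naive pluripotency genes were lower in MD wherever they were called. Of 26 naive genes 6 were called, all lower in MD, against 3.29% of all genes in that direction, and 19 of the 26 lay below 0 (median -0.24, against -0.004 over all tested genes). Klf4, a factor directly downstream of LIF, lay from 49.7 to 55.05 CPM (median 51.1) in the 6 MD libraries and from 97.8 to 129.6 CPM (median 102) in the 6 R42A libraries. No library of either genotype entered the range of the other, and the log2 change was -1.02 ± 0.09. Tbx3, another naive factor, was at 21.97 and 30.7 CPM in MD clones 09 and 30 against 75.1 and 70.2 CPM in R42A clones A04 and A10, a change of -1.46 ± 0.17. Tfcp2l1 and Esrrb had smaller changes of -0.87 ± 0.10 and -0.69 ± 0.07, at 380.3 and 399 against 650.5 and 605 CPM for Esrrb. Prdm14, a repressor that keeps ESC naive, was lower too (-0.56 ± 0.09), as was Fgf4, the ligand that drives exit from the naive state (-0.48 ± 0.08).

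The naive list also held members above 0, and in the second series 3 members were called higher and 14 lower. With each chromosome scaled separately 7 were called lower, with Stat3 of chromosome 11 added (adjusted p = 0.0446), and Klf2 of chromosome 8 was called higher (adjusted p = 0.0349). Dppa3 (Stella), a maternal factor that protects against DNA methylation, was at 110.2 and 107 CPM in MD clones 09 and 30 against 9.23 and 27.4 CPM in R42A clones A04 and A10. All MD libraries lay above all R42A libraries, but the R42A clones differed, and the change of 2.57 ± 0.52, adjusted p = 0.0539 missed the threshold. Of 11 core genes 1 was called, against 7.85% of all genes. It was Lin28a, an RNA-binding protein that blocks let-7, higher by 0.69 ± 0.11 at 427 and 444 against 296 and 243 CPM.

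Formative genes were called in 4 of 18, all higher, against 4.57% of all genes in that direction, with a median of 0.68. Dnmt3b, the de novo DNA methyltransferase of the epiblast, lay from 353 to 406 CPM (median 369.6) in the 6 MD libraries and from 141 to 188 CPM (median 169) in the 6 R42A libraries, and the ranges were far apart. Its change was 1.18 ± 0.06. Pou3f1 (Oct6) was at 12.4 and 9.67 CPM in MD clones 09 and 30 against 2.95 and 4.22 CPM in R42A clones A04 and A10, a change of 1.62 ± 0.24, and Sall2 changed by 1.47 ± 0.25. Fgf5, a ligand of the epiblast, had the highest change of this list (3.34 ± 0.60) from a low level, at 3.01 and 1.11 against 0.153 and 0.252 CPM. After scaling by chromosome Sall2 (adjusted p = 0.0524) and Fgf5 (adjusted p = 0.0568) lost their calls, and Etv4 on chromosome 11 was called lower (adjusted p = 0.041). In the second series 10 members were called higher and 2 lower. Otx2 lay in the same direction (0.51 ± 0.15, adjusted p = 0.106), and so did the primitive streak gene T (1.80 ± 0.50, adjusted p = 0.0949), neither being called.

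Of the 20 LIF and STAT3 genes, Lif itself (chromosome 11; 0.81 ± 0.15, adjusted p = 0.17 after scaling by chromosome) and Pramel7 were higher, and Klf4, Tfcp2l1 and Pim3 were lower. Germline genes held 4 higher and 1 lower of 24, against 4.57% and 3.29% of all genes, with a median of -0.04. Tex19.1 (chromosome 11), which restrains retrotransposons, was at 207 and 213 CPM in MD clones 09 and 30 against 53.3 and 79.4 CPM in R42A clones A04 and A10 (1.66 ± 0.20). Tdrd12, of the piRNA pathway, was higher by 1.23 ± 0.15, and Prdm1 and Hormad1 by 0.53 ± 0.09 and 0.48 ± 0.08. Stra8, which responds to retinoic acid and starts meiosis, was lower (-0.66 ± 0.12).

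The 2-cell-like genes, which a small share of ESC switch on together, were highest in clone A04. Of 19 tested members 0 were called in edgeR (1 had an unadjusted p under 0.05), 1 called in DESeq2 and 0 in limma voom. The median was -0.95, and 18 lay below 0. Their summed level was 182 and 270.1 CPM in MD clones 09 and 30, and 1021 and 152 CPM in R42A clones A04 and A10. Zscan4c, of the Zscan4 cluster that lengthens telomeres, lay from 27.2 to 53.2 CPM (median 37.9) in the 6 MD libraries and from 25.5 to 245 CPM (median 95.3) in the 6 R42A libraries, with both MD clones between the R42A clones A10 (29.03) and A04 (199.7). Its log2 change was -1.51 ± 0.87, adjusted p = 0.326, and without A04 it was 0.45. Zscan4d had the same pattern (27.1 and 39.8 against 157 and 17.9 CPM; -1.39 ± 0.96, adjusted p = 0.404), and 0.88 without A04. In the second library series, with other clones, 12 of these genes were called lower and 1 higher, and Zscan4c lay at -1.73 (adjusted p = 0.0335). The Zscan4 copies are nearly identical, so the division of reads between them is uncertain. In these bulk libraries more cells of the state and more RNA per cell cannot be told apart.

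**Figure D4:**
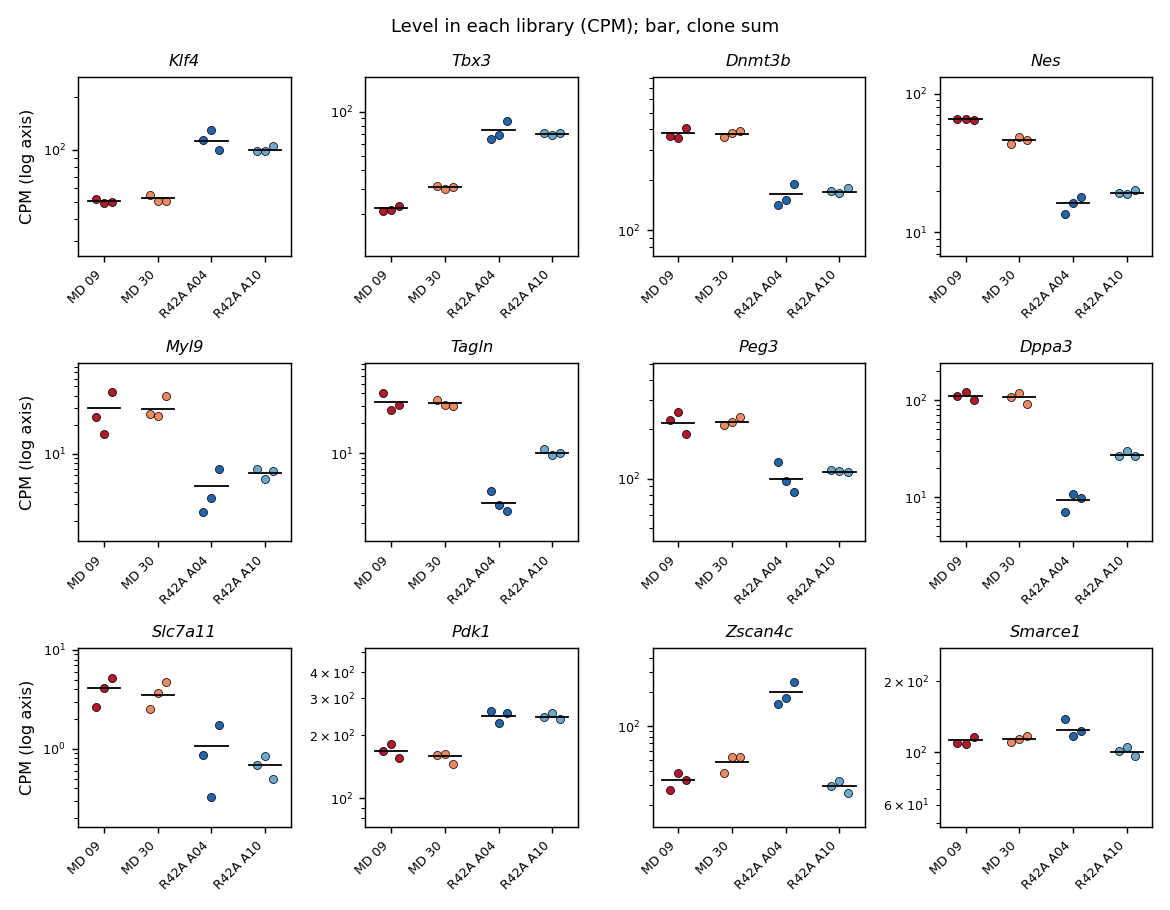
CPM of 12 genes in each library on a log axis, by clone; points are the 3 libraries of a clone and bars the clone sum. Klf4, Tbx3 and Pdk1 lie lower, and Dnmt3b, Nes, Myl9, Tagln, Peg3, Dppa3 and Slc7a11 higher, in every MD library than in every R42A library; Zscan4c is high in A04 alone, and Smarce1 overlaps.

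Genes of the actin cytoskeleton that respond to serum response factor (SRF) were among the lists with the most calls. SRF binds the CArG box with MRTF coactivators, which enter the nucleus when actin polymerises. Of 22 members 7 were called, all higher in MD, against 4.57% of all genes, 20 lay above 0, and the median was 0.72. With each chromosome scaled separately 5 were called. Myl9, a myosin regulatory light chain, lay from 16.1 to 43.8 CPM (median 25.4) in the 6 MD libraries and from 2.49 to 6.95 CPM (median 6.04) in the 6 R42A libraries. The MD libraries varied widely among themselves, and none overlapped with R42A; the change was 2.43 ± 0.17. Cnn2, an actin-binding calponin, was at 90.3 and 93.2 CPM in MD clones 09 and 30 against 38.9 and 45.4 CPM in R42A clones A04 and A10 (1.12 ± 0.10). Tpm1, tropomyosin, changed by 1.06 ± 0.13, at 210.4 and 195 against 85.7 and 108 CPM. Cardiac actin, Actc1, was low in all libraries, at 2.78 and 2.42 against 0.176 and 0.436 CPM (3.08 ± 0.47). Srf itself was higher by 0.65 ± 0.10, at 25.9 and 28.6 against 16.4 and 18.2 CPM; it was chosen for naming after its value was seen. Tagln and Acta2, markers of smooth muscle, had changes of 2.30 ± 0.55, adjusted p = 0.072 and 2.31 ± 0.69, adjusted p = 0.109. Neither was called, and the R42A clones lay apart, at 3.14 and 10.1 CPM for Tagln in A04 and A10, against 33.1 and 31.9 in MD.

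The promoters of 4 of the 7 called members hold a CArG box, and are shown for the place of that box. Windows are from RefSeq (GRCm38.p6), 250 bases before to 50 after the start, read 5′ to 3′ on the strand of the gene, with the box in capitals. The box reads the same pattern on both strands. It lies 161 bases before the start in Myl9 (chr2:156775214-156775513, plus strand), 56 in Cnn2 (chr10:79988350-79988649, plus strand), 47 in Actc1 (chr2:114052826-114053125, minus strand), and 82 and 62 in Srf (chr17:46556113-46556412, minus strand), which holds it at 2 places.
Myl9: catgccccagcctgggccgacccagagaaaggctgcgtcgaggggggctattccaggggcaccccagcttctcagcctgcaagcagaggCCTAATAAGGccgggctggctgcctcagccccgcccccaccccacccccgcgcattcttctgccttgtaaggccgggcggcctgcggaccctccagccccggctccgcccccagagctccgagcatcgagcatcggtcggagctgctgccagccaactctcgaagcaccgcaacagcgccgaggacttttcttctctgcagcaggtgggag
Cnn2: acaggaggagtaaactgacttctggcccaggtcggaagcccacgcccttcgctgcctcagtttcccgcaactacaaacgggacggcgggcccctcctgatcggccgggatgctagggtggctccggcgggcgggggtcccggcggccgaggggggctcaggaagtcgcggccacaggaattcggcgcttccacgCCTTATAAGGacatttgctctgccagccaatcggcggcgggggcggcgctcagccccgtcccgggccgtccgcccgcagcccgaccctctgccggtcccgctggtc
Actc1: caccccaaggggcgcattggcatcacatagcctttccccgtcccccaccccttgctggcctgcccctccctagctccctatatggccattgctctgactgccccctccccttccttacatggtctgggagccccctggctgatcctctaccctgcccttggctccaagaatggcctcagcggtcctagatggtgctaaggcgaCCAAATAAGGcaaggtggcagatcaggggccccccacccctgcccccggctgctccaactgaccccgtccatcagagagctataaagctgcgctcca
Srf: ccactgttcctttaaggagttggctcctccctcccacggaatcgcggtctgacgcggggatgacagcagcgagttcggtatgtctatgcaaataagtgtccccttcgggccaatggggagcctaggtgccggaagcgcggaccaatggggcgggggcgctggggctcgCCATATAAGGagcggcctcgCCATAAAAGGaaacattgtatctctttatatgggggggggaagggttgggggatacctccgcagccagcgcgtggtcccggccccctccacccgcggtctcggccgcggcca
Of 32851 windows 1.63% hold the box, as do 1.71% of 13824 tested genes with a window. In the SRF list, which was made of known targets, it is in 7 of 20 members with a window. Cnn1, Tpm1 and Tpm2, the other called members, have none in this window.

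Targets of YAP and TEAD, the factors at the end of the Hippo pathway, were called in 3 of 19 (median 0.32). All were higher, against 4.57% of all genes in that direction. The matricellular genes Ccn1 and Ccn2 were at 37.6 and 35.7 against 5.84 and 10.6 CPM and 42.6 and 43.8 against 14.5 and 17.1 CPM, changes of 2.15 ± 0.30 and 1.45 ± 0.11. Amotl2 changed by 0.83 ± 0.14. SRF also acts on Ccn1, so these lists are not independent. Of 18 laminin and basement membrane genes 1 was called, Lama3, higher by 1.00 ± 0.15. Among 16 integrins, Itgb8 and Itga1 were higher (4.10 ± 0.57 and 1.22 ± 0.22) and the fibronectin receptor subunit Itga5 was lower (-0.71 ± 0.07). Itgb8, which activates latent TGFb, was at 1.41 and 0.758 against 0.0361 and 0.0881 CPM, near 0 in both R42A clones.

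Junction genes were called in 5 of 22, against 7.85% of all genes, and 4 were higher. The epithelial splicing regulator Esrp1 and the epithelial factor Grhl2 were at 71.2 and 75.8 against 14.6 and 22.7 CPM and 62.5 and 63.1 against 17.2 and 21.8 CPM, changes of 1.98 ± 0.22 and 1.69 ± 0.13. N-cadherin, Cdh2, a mesenchymal and neural cadherin, was higher in the same libraries (1.54 ± 0.15), as was Epcam. The desmosomal cadherin gene Dsg2 was lower (-0.94 ± 0.09). Genes of epithelia and a cadherin of mesenchyme were thus among those higher, and the median of the list was 0.32.

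Markers of other cell types were measured to see whether differentiated cells were present. Neural progenitor genes held 5 calls of 20, all higher, against 4.57% of all genes, with a median of 0.91. Of the 20, 15 lay above 0 and 5 below, down to -1.92. Among those not called, Sox1 (chromosome 8) lay at -1.09 after scaling by chromosome (adjusted p = 0.123). Zfp521 lay at -1.91 after the same scaling (adjusted p = 0.0928). Nes, the intermediate filament nestin, lay from 43.1 to 65.7 CPM (median 56.3) in the 6 MD libraries and from 13.6 to 20.1 CPM (median 18.5) in the 6 R42A libraries. MD clone 09 was above clone 30, and both were far above R42A, with a change of 1.65 ± 0.20. Cdh2, Sox11 and Sox21 changed by 1.54 ± 0.15, 0.89 ± 0.16 and 1.03 ± 0.19, and Vim was called as well. After scaling by chromosome Nes and Cdh2 kept their calls, and Sox11 (adjusted p = 0.053), Sox21 (adjusted p = 0.0585) and Vim (adjusted p = 0.064) did not. The summed level of the list was 342 and 284 CPM in MD clones 09 and 30, and 203 and 204 CPM in R42A clones A04 and A10. Neuronal genes held 3 of 20, all higher, against 4.57% of all genes in that direction. All were neurofilament or related genes: Nefm, Nefl (0.71 ± 0.13) and Ina (1.28 ± 0.24, adjusted p = 0.0589 after scaling). The summed level of the neuronal list overlapped between genotypes, from 478 to 557 CPM in MD and 416 to 579.8 CPM in R42A. Stmn2, which was not called, gave the most counts to this sum (227047). Dcx, which marks young neurons, was at 0.2097 and 0.0587 against 0.00451 and 0.0126 CPM, close to 0.

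For the lists that follow, the share called over all tested genes was 7.85%. Mesoderm genes held 1 call of 17, Wnt3 (chromosome 11, 1.83 ± 0.29, adjusted p = 0.062 after scaling), and summed to 14.3 to 18.7 CPM in MD and 15.4 to 21.6 CPM in R42A. Endoderm genes held 1 of 24, the hepatic factor Hnf4a, which was lower (-1.89 ± 0.22; 0.923 and 0.886 against 2.94 and 3.75 CPM), and summed to 562 to 779 CPM in MD and 358 to 821 CPM in R42A. Trophectoderm genes held 3 of 21: Gata3 and Tfap2c higher (1.88 ± 0.28 and 0.83 ± 0.09) and Bmp4 lower (-1.35 ± 0.11), with Cdx2 at 0.228 and 0.315 against 0.0992 and 0.0294 CPM and Prl3d1 at 0 counts. The keratins Krt8 and Krt18 were not called (1.10 ± 0.44, adjusted p = 0.184 and 1.35 ± 0.48, adjusted p = 0.151). Trophectoderm genes summed to 125 to 179 CPM in MD and 86.3 to 156 CPM in R42A. Endothelial and blood genes held 2 of 15, the VEGF receptor gene Kdr (1.79 ± 0.30, adjusted p = 0.0543 after scaling) and Cdh5 (chromosome 8; 1.66 ± 0.31, adjusted p = 0.0597 after scaling, at 0.592 and 0.736 against 0.171 and 0.247 CPM), and summed to 167 to 209.7 CPM in MD and 106 to 159 CPM in R42A. Fibroblast genes held 1 of 17, Dcn, at 0.182 and 0.0907 against 0.0135 and 0.00419 CPM; their median was 1.20, and their summed level was 534 to 667 CPM in MD and 648 to 851 CPM in R42A. The collagen gene Col1a1 (chromosome 11) was at 4.46 and 3.997 against 0.839 and 2.84 CPM (1.20 ± 0.57, adjusted p = 0.249, and 0.775 after scaling by chromosome). In the endothelial sum Pecam1, of chromosome 11 and also in the naive list, held 99673 counts, and the next gene, Tek, 11387. In the fibroblast sum Fn1 held 540396 counts, and the next gene, Mmp2, 14964. Each of these sums is therefore mostly the level of Pecam1 or of Fn1, and neither gene was called. The part of differentiated cells in the results was not tested.

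Hox genes, which pattern the body axis and are held silent by Polycomb in ESC, were low throughout. Of 36 genes 26 passed the filter on low counts, 4 were called, and the median was -1.07. All 4 were lower in MD, against 3.29% of all genes in that direction. The summed level was 5.94 and 5.59 CPM in MD clones 09 and 30, and 14.98 and 11.1 CPM in R42A clones A04 and A10. Hoxb9 (chromosome 11) was at 0.554 and 0.651 against 2.02 and 1.66 CPM, a change of -1.61 ± 0.23 against the direction of its chromosome. Hoxc13, Hoxa4 and Hoxc10 had changes of -1.61 ± 0.24, -2.84 ± 0.37 and -2.67 ± 0.52 at low levels. Hoxb13 (chromosome 11) had a change of -1.15 ± 0.49, adjusted p = 0.204, and of -1.63 after scaling by chromosome.

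Imprinted genes, expressed from 1 parental copy and controlled by DNA methylation, held 9 calls of 33, all higher in MD, against 4.57% of all genes, with 27 above 0 and a median of 0.54. H19, the maternally expressed noncoding RNA next to Igf2, lay from 53.7 to 122 CPM (median 81.8) in the 6 MD libraries and from 6.84 to 9.95 CPM (median 8.85) in the 6 R42A libraries. MD clone 30 was above clone 09, at 109 and 59.96 CPM, and the change was 3.31 ± 0.33. Its neighbour Igf2, expressed from the paternal copy, had a change of 1.12 ± 0.54, adjusted p = 0.253, at 10.7 and 9.19 against 2.19 and 6.95 CPM. Peg3, a paternally expressed zinc finger gene, was at 219.5 and 222 CPM in MD clones 09 and 30 against 99.2 and 110.2 CPM in R42A clones A04 and A10 (1.08 ± 0.08), and Usp29 beside it changed by 1.06 ± 0.12. Impact, another paternally expressed gene, changed by 0.69 ± 0.07. Plagl1, Dlk1, Zrsr1 (chromosome 11), Snrpn and Dcn were the other called members. With each chromosome scaled separately 6 were called; Zrsr1 (adjusted p = 0.637), Dlk1 (adjusted p = 0.0536) and Dcn (adjusted p = 0.0582) were not. Genes of both parental origins were thus among those higher. The libraries do not tell the parental copies apart, so loss of imprinting was not tested.

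Among 19 DNA methylation genes, Dnmt3b was higher and Zfp57, the zinc finger that protects imprints, was lower (-0.55 ± 0.07; 468 and 467 against 704 and 666 CPM). Of 32 Polycomb and trithorax genes, Suz12 (chromosome 11; 0.80 ± 0.12, adjusted p = 0.088 after scaling), Pcgf6 (0.39 ± 0.07) and Phc1 (0.32 ± 0.06) were higher and the median was 0.01. Replication-dependent histones held 1 call of 18, Hist2h2be, which was lower (-1.45 ± 0.20). For comparison with these lists, the shares called over all tested genes were 4.57% higher and 3.29% lower.

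**Figure D5:**
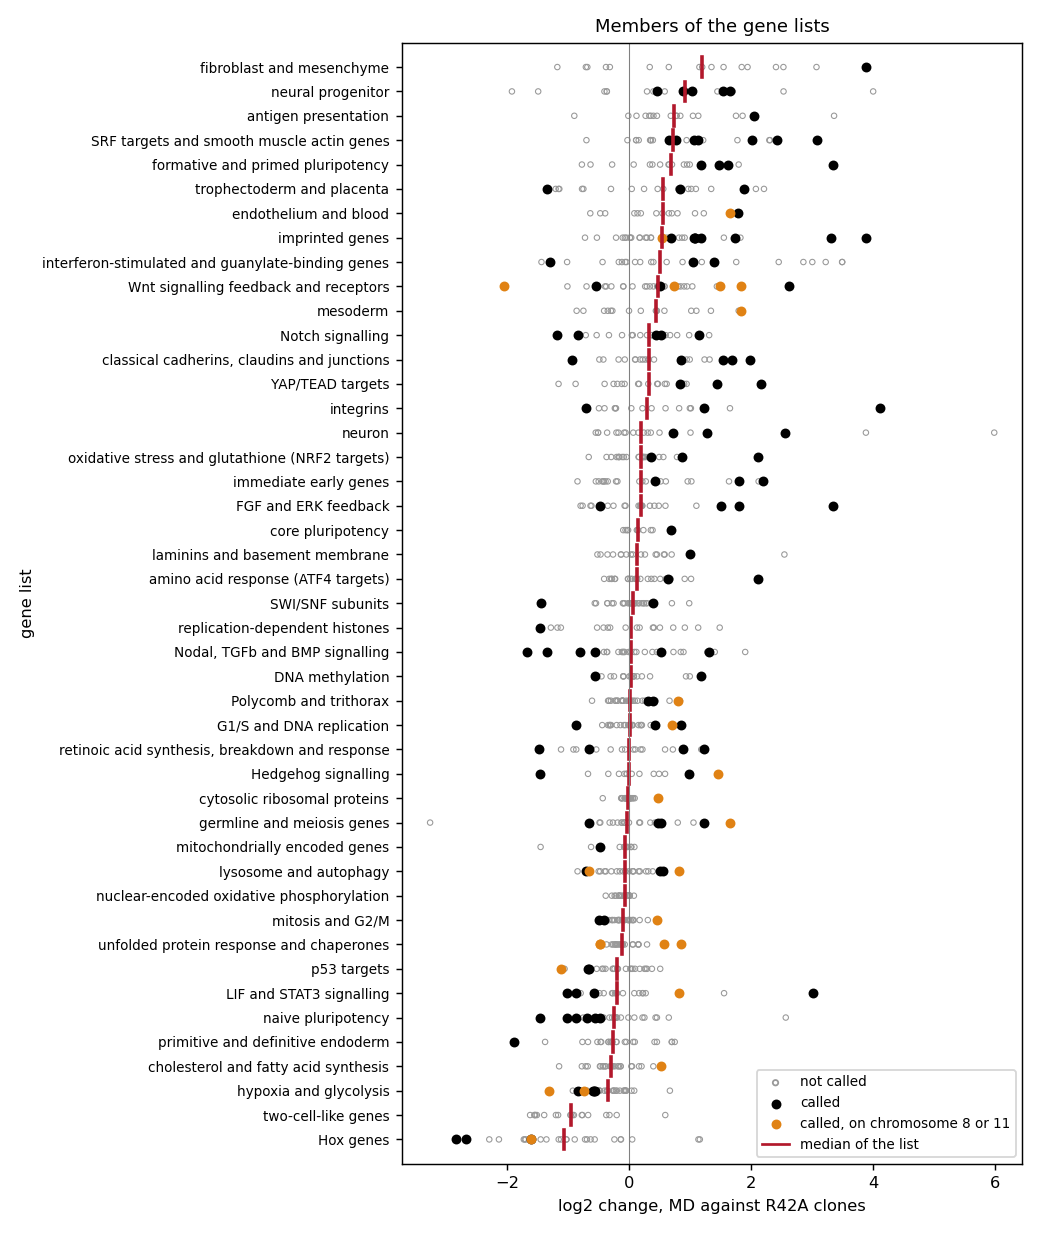
Each row is a gene list, ordered by its median (red bar), and each point is the log2 change of a tested member between MD and R42A clones (x axis). Filled points are called, orange where the gene lies on chromosome 8 or 11; SRF, neural progenitor, formative and imprinted genes hold called members on the higher side, and naive, hypoxia and Hox genes on the lower side.

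Signalling genes were called in both directions within most pathways. Over all tested genes, 4.57% were called higher and 3.29% lower. With each chromosome scaled separately, the calls higher and lower were 3 and 2 in the Wnt list, 2 and 2 in the FGF list, 1 and 2 in the Notch list, 0 and 1 in the retinoic acid list, 1 and 0 among immediate early genes and 2 and 0 among germline genes. The same scaling gave 2 and 4 in the Nodal, TGFb and BMP list and 2 and 0 in the Hedgehog list. Without it, 5 of 30 in the Wnt list were higher and 2 lower. The receptor genes Fzd2 (chromosome 11; 1.49 ± 0.19, adjusted p = 0.062 after scaling) and Lgr4 (0.50 ± 0.06) were higher, with the ligand genes Wnt3 and Wnt8a and the feedback ligase Znrf3 (chromosome 11; 0.73 ± 0.10, adjusted p = 0.207 after scaling), while the antagonist Sfrp1 and the receptor Fzd5 were lower. In the FGF list, the receptor Fgfr2 (1.51 ± 0.17; 19.9 and 24.9 against 7.06 and 8.600 CPM), the ligand Fgf5 and the target Egr1 were higher and the ligand Fgf4 was lower, out of 23. Egr1 lay from 31.3 to 55.1 CPM (median 42.4) in the 6 MD libraries and from 9.75 to 16.7 CPM (median 13.4) in the 6 R42A libraries, with a change of 1.81 ± 0.14; it is also an SRF target and an immediate early gene. Of 22 immediate early genes, Egr1, Egr3 (2.19 ± 0.37, near 0 CPM) and Klf6 (0.43 ± 0.08) were called, all higher.

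In the Nodal, TGFb and BMP list 2 of 27 were higher and 4 lower. The ligand genes Bmp4 and Bmp7 were at 7.14 and 7.53 against 19.2 and 18.2 CPM and 1.51 and 1.34 against 3.76 and 5.303 CPM, changes of -1.35 ± 0.11 and -1.66 ± 0.24. The activin receptor gene Acvr1b was lower (-0.80 ± 0.12), as was the inhibitor Smad7, and the corepressor Skil (0.52 ± 0.07) and Id2 were higher. In the Notch list the ligands Dll3 (1.14 ± 0.17) and Jag1 (0.53 ± 0.10) and the receptor Notch2 were higher, and Notch4 (-1.18 ± 0.19) and the target Hes1 (-0.83 ± 0.12) lower, of 20. The Hedgehog receptor Ptch1, itself a target of the pathway, was at 193 and 206 CPM in MD clones 09 and 30 against 99.4 and 103 CPM in R42A clones A04 and A10 (0.97 ± 0.07). Hhip, another such target, was higher although it lies on chromosome 8 (1.46 ± 0.28). The ligand Dhh was lower (-1.46 ± 0.26, adjusted p = 0.0536 after scaling), among 14 Hedgehog genes. In the retinoic acid list, the binding protein gene Crabp1 and Stra8 were lower (-1.47 ± 0.14 for Crabp1), and the degrading enzyme Cyp26a1 and the synthetic enzyme Aldh1a3 were higher (1.22 ± 0.24 and 0.89 ± 0.17), of 18.

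In the edgeR fit of the 4 clone sums, genes of hypoxia and glycolysis were lower in MD wherever they were called. In the second series 12 members were called lower and 1 higher. Of 32 members 6 were called, all lower in MD, against 3.29% of all genes, 29 lay below 0, and the median was -0.35. Pfkp, phosphofructokinase, was at 296 and 272 CPM in MD clones 09 and 30 against 489 and 530.1 CPM in R42A clones A04 and A10 (-0.84 ± 0.08). Pdk1, the kinase that turns pyruvate away from mitochondria, lay from 146 to 182 CPM (median 161) in the 6 MD libraries and from 228 to 260.3 CPM (median 249.8) in the 6 R42A libraries. No library overlapped, and the change was -0.59 ± 0.07. The glucose transporter gene Slc2a1, chosen after its value was seen, was lower (-0.55 ± 0.07), with Slc2a3. Egln1, the oxygen sensor, and Ankrd37 both lie on chromosome 8, with changes of -0.74 ± 0.08 and -1.31 ± 0.16 and adjusted p = 0.122 and 0.0561 after scaling by chromosome, which left 3 calls in the list. The abundant glycolytic genes Ldha and Pgk1 were not called (-0.09 ± 0.07, adjusted p = 0.447 and -0.36 ± 0.16, adjusted p = 0.218), and the summed level overlapped, at 10036 to 12525 CPM in MD and 10001 to 15182 CPM in R42A.

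The promoter window of Ankrd37 (chr8:45999801-46000100, minus strand, RefSeq, GRCm38.p6) is shown because it holds 2 copies of ACGTG. This is a form of the core of the site that hypoxia-inducible factors bind. The copies are in capitals, 241 and 6 bases before the start.
Ankrd37: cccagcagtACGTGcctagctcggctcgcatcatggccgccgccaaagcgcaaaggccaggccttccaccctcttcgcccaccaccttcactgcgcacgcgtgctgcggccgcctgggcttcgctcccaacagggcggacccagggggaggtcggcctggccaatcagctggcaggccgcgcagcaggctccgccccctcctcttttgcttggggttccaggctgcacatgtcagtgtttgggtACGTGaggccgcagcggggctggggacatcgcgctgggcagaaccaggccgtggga
Searched on both strands, ACGTG is in 19.6% of all windows, in 27.1% of tested genes with a window, in 22 of 29 members of the list with a window, and in 3 of the 5 called members that have one (Slc2a1, Ankrd37 and Egln1). Other forms of the core were not searched. The list was made of known targets.

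The other metabolic and stress lists held from 0 of 26 to 5 of 26 calls, against 7.85% of all genes. Nuclear-encoded oxidative phosphorylation genes held 0 of 26 in edgeR (4 had an unadjusted p under 0.05), 1 called in DESeq2 and 3 in limma voom, and a median of -0.07. Mitochondrially encoded genes held 1 of 11, mt-Nd5, which was lower (-0.48 ± 0.06). Cholesterol and fatty acid genes held 1 of 26, Fasn on chromosome 11 (0.53 ± 0.06, adjusted p = 0.51 after scaling). The cystine transporter gene Slc7a11, a target of both ATF4 and NRF2, lay from 2.51 to 5.200 CPM (median 3.91) in the 6 MD libraries and from 0.327 to 1.76 CPM (median 0.776) in the 6 R42A libraries (2.11 ± 0.29). With it, the arginine transporter Slc7a3 (0.63 ± 0.08) was called among 24 ATF4 targets, and Gstp1 (0.87 ± 0.09) and Gclm (0.35 ± 0.07), of glutathione use and synthesis, among 24 NRF2 targets.

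In the unfolded protein list Xbp1 (0.86 ± 0.07) and Canx (0.58 ± 0.10), on chromosome 11, were higher and Calr (-0.48 ± 0.08) and Dnajb1 (-0.48 ± 0.09), on chromosome 8, lower, of 24. After scaling, Xbp1 alone kept its call, and the adjusted p was 0.298 for Canx, 0.389 for Calr and 0.334 for Dnajb1. Of 26 lysosome and autophagy genes, Tfe3, a regulator of lysosome genes whose nuclear form holds ESC in pluripotency, was higher (0.50 ± 0.07), with the cholesterol exporter Npc1 (0.56 ± 0.08) and the autophagy receptor Sqstm1 (chromosome 11; 0.81 ± 0.13, adjusted p = 0.0937 after scaling). Map1lc3b (chromosome 8; -0.65 ± 0.08, adjusted p = 0.0882 after scaling) and Glb1 were lower.

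Interferon-stimulated genes held 2 higher and 1 lower of 24, against 4.57% and 3.29% of all genes. The RNA sensor Ddx58 (RIG-I) was at 62.9 and 65.98 CPM in MD clones 09 and 30 against 30.2 and 32.4 CPM in R42A clones A04 and A10 (1.04 ± 0.08), and Ifitm1, also a germ cell gene, changed by 1.39 ± 0.21, while Ifit2 was lower (-1.29 ± 0.22). Gbp2, a guanylate-binding protein, was at 35.2 and 29.1 CPM in MD clones 09 and 30 against 0.676 and 5.03 CPM in R42A clones A04 and A10. Every MD library was higher than every R42A library, but A04 and A10 lay far apart, and the change of 3.49 ± 0.92, adjusted p = 0.0869 was not called. Isg15 was low everywhere, at 0.676 and 0.6296 against 0.00902 and 0.151 CPM (3.002 ± 0.96, adjusted p = 0.125). Antigen presentation held 1 call of 18, the peptidase Erap1 (2.05 ± 0.24; 14.2 and 11.7 against 2.52 and 3.73 CPM), with 16 members above 0.

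Of 27 mitosis genes 19 lay below 0 (median -0.10), and of 28 G1/S genes 12 (median 0.01). Calls in the lists of this paragraph compare with 4.57% higher and 3.29% lower over all tested genes. In the second series 10 G1/S genes were called lower and 2 higher, and 4 mitosis genes lower and 2 higher. Of the mitosis genes the checkpoint kinase Bub1b (-0.41 ± 0.06) and Mki67 (-0.49 ± 0.08) were lower, and Top2a (chromosome 11; 0.46 ± 0.07, adjusted p = 0.973 after scaling) higher. Of the G1/S genes the licensing factor Cdc6 (chromosome 11; 0.70 ± 0.09, adjusted p = 0.106 after scaling) and the G1 kinase Cdk6 (0.85 ± 0.13) were higher, and the inhibitor Cdkn1b (p27) lower, at 20.1 and 15.5 against 30.1 and 34.9 CPM (-0.87 ± 0.16). Targets of p53 held 3 of 25, all lower, against 3.29% of all genes in that direction. They were Eda2r (-0.68 ± 0.09), Sesn1 (-0.66 ± 0.12, adjusted p = 0.0598 after scaling) and Gdf15 (chromosome 8, -1.12 ± 0.20, adjusted p = 0.0946 after scaling). Ribosomal protein genes held 1 of 30, Rpl23 on chromosome 11 (0.47 ± 0.06), whose adjusted p was 0.918 after scaling.

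The second library series gives other clones of the same genotypes, MD 45 and 47 against R42A A01 and A02. There 4898 of 21020 genes were called (23.3%). Of the 1771 genes called here, 1732 were tested there, 1729 had the same sign and 1488 the same sign and a call. Outside chromosomes 8 and 11, 921 of 1136 did. The median of the fitted log2 changes was -0.473 on chromosome 8 and 0.516 on chromosome 11 in that series, against fitted medians of -0.367 and 0.454 in the first. The log2 changes of the first and second series, in that order, were -1.02 and -1.06 for Klf4, 1.18 and 1.15 for Dnmt3b, and 2.43 and 2.48 for Myl9. They were 3.90 and 4.85 for Enpp2 and -2.74 and -2.71 for Coro2b. Dppa3 was called there, at 3.99 (adjusted p = 0.00185). Cdh5 was higher here and lay at -0.18 there (adjusted p = 0.875). A test of the difference between the series (genotype by series, on 8 clone sums) called 0 genes in edgeR and 7 in DESeq2, and the unadjusted p was under 0.05 for 685 genes in edgeR. The 7 include Col1a2, at 2.41 here and 5.43 there, and the X-linked genes Xlr3a, Xlr3b and Xlr3c, at -0.54, -0.04 and 0.27 here and 0.55, 1.44 and 1.93 there. They were named after their values were seen.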

How the data were processed

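RNA-seq tables of 12 ESC libraries were used, 1 table per library, of expected counts per gene that the authors deposited without normalization. Per the submitters' processing notes, the build was mm10 and the tools RSEM 1.3.0, STAR 2.7.1a, DESeq2 and Trim Galore 0.60, with no roles given. CPM values are counts scaled to the TMM-adjusted library size, by edgeR. Each table has 55665 entries. The 92 spike-ins, which total 0, and 1562 Y-linked entries were left out. Whether counting used strand is not given in the sources used here, so overlapping genes are uncertain.

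Expected counts (1.46% to 1.68% not whole, tolerance 1e-06) were rounded and summed over the 3 libraries of a clone. Genes kept by filterByExpr (minimum count 10) were tested on 4 clone sums with edgeR 4.0.16 (R 4.3.3; TMM scaling, robust quasi-likelihood F-test, Benjamini-Hochberg adjustment). The SE is the log2 change divided by the square root of F. P-values measure only the spread between these sums, which may be in part technical. DESeq2 1.42.0 and limma 3.58.1 were alternatives. Positions came from GENCODE M21 (mm10; 93 of 54011 genes without one), and promoters from RefSeq. Principal components used log2 CPM with a prior count of 2.

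The members and the 45 gene lists were chosen with earlier results of these data known. Lists are described by counts and medians, with no set test. Named genes are the 15 highest and 15 lowest called genes with at least 5 CPM in the higher genotype and libraries apart, leaving out symbols of predicted genes; up to 4 called members per list with the smallest p, with uncalled members where needed; and Smarce1, Pou5f1, Sox2 and Nanog. Called members outside these are given by name only, save where said. A called member of the G1/S list is not reported here. The library series were read from runs of library numbers. Where 2 entries share a symbol, the more abundant was used. The depth of 44324124 to 96424439 counts limits what can be said of genes under about 1 CPM.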

Additional observations from a re-analysis of the deposited data

Results flagged for a closer look

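In groups of 6 libraries, 70 groups were examined for a library far from the others (its gap to the nearest library, over the range, above Dixon's critical value), and 4 were found. Chance gives such a flag in about 5% of groups. Kctd12b was at 11.26 CPM in the second library of MD clone 09, against 8.463 in the next. Nkx6-3 was at 0.5003 CPM in the second library of MD clone 30, against 0.8229. Klhdc7a was at 2.779 CPM in the third library of R42A clone A04, against 7.899, and that library also stood apart on the second principal component. Atp2a3 was at 4.361 CPM in the second library of MD clone 09, against 5.294. All 4 genes were chosen among those whose MD and R42A libraries did not overlap.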

How the results depend on the processing

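The counts of calls higher and lower, 1030 and 741, depend strongly on the fit. The cause was not tested. They were 986 and 751 with DESeq2 size factors, 1564 and 1196 with no filter on low counts, 432 and 458 with each chromosome scaled separately, 2236 and 2081 in DESeq2 (2624 genes without an adjusted p), 2814 and 2509 in limma voom with the clone as a random block, and 1812 and 1755 with all 8 ESC clone sums in 1 fit. With the 12 libraries as replicates they were 3359 and 3558, and with the library number as a replicate block 3251 and 3501. Deviations of same-numbered libraries of MD and R42A correlated between -0.318 and 0.293, so the numbers did not pair the genotypes throughout. The first A04 library correlated most with the second MD libraries (0.384 for clone 09 and 0.229 for clone 30). The second A04 library did so with the first MD libraries (0.299 and 0.28), and the third with the third (0.293 and 0.286). Between A10 and MD libraries the correlations lay from -0.201 to 0.203. A pairing across numbers was not tested. Within MD, clones 09 and 30 correlated at 0.245 to 0.292 by number, and within R42A at -0.213 to 0.01. Each clone sum holds all 3 numbers. Leaving out a clone or a library number gave 0 to 4377 higher and 0 to 4319 lower. The low counts came without clone 09 (1 and 0), clone 30 (0 and 0) and the second libraries (0 and 0; lowest adjusted p = 0.0595), and the high ones without A04 or A10. Without the third A04 library, an alternative chosen after seeing the data, they were 2245 and 1948.

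No named called gene changed sign under any of these. Of the 142 called genes followed through the alternatives, 100 kept their call with each chromosome scaled separately, 139 with DESeq2 size factors, and 140 of 140 in DESeq2; without clone 30 or the second libraries 0 did, and without clone 09, 1. Signs changed in uncalled genes. Smarce1 was at -0.458 with each chromosome scaled separately, -0.012 and -0.011 in the library fits without and with the replicate block, -0.011 in the fit of 8 clone sums, -0.003 without the third A04 library, and -0.144 to 0.155 when a clone or library number was left out. Zfp42 was at 0.122 with each chromosome scaled separately. Leaving out a clone or library number gave -0.155 to 0.078 for Pou5f1, -0.218 to 0.189 for Utf1, -2.316 to 0.446 for Zscan4c, -2.237 to 0.883 for Zscan4d, -0.039 to 0.125 for Smarca4 and -0.025 to 0.172 for Smarcb1. The genes whose change differed between the library series numbered 0 in edgeR, 7 in DESeq2 and 1 with no filter on low counts, the predicted gene Gm42417. DESeq2 size factors and scaling by chromosome moved the median of all genes by -0.007 and -0.006 on the log2 scale.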

Other observations

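Long noncoding RNA genes were called in 122 of 2402 tested, and protein-coding genes in 1556 of 16412, against 7.85% of all tested genes. A difference between these classes was not tested.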
